A study of Mus musculus with 4 samples.

Results

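The 7 genes described here encode matrix proteases or proteins that control them, and were followed across cultured mouse myoblasts that did or did not receive the transcription factor Twist2. They are the proteases Adamts1, Adamts5, Mmp19 and Plat, the inhibitor Timp3, the collagen receptor Mrc2 and the procollagen processing enhancer Pcolce2. They were taken by symbol from the 3760 genes of the deposited table, and all 7 were found. The names had been chosen by their CPM (read counts put on a common library size) in these same libraries, so every level and ratio given for them is a description and none is a test. The cells were myoblasts labelled Twist2-positive, from skeletal muscle of adult C57BL/6 mice, and all had been given a retrovirus for 24 h, followed by another 24 h in growth medium that held 20% fetal bovine serum. The virus carried Twist2-IRES-GFP or, in the controls, GFP (green fluorescent protein), and cells were harvested either at that point or after 5 days of differentiation in medium with 2% horse serum. The groups are called Twist2 differentiation medium, Twist2 growth medium, GFP differentiation medium and GFP growth medium, with 1 library each. The labels do not give the number of animals or cultures behind a library, the promoter that drives Twist2, or whether infected cells were sorted.

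The matrix around muscle cells is remodelled while myoblasts fuse and muscle fibres mature. ADAMTS proteases and matrix metalloproteinases are secreted or membrane-bound zinc enzymes that cut proteoglycans, collagens and basement membrane proteins, and plasmin, made from plasminogen by its activators, cuts fibrin and other matrix proteins. TIMP proteins bind and block metalloproteinases, while other proteins govern how procollagen is trimmed into fibres and how cut collagen is taken up again. Twist2 is a basic helix-loop-helix factor of the mesenchyme, and proteins of that class bind DNA letters of the form CANNTG, called the E-box.

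The libraries held 12362290 reads in Twist2 differentiation medium and 11068073 in Twist2 growth medium, against 9235281 in GFP differentiation medium and 9744075 in GFP growth medium. Twist2 itself had 674 and 1438 CPM in the Twist2 libraries of differentiation and growth medium, against 0 and 1 read in the GFP libraries of the same media. The label Twist2-positive thus does not describe the Twist2 RNA of the GFP libraries. The labelled cell type was checked on 5 myoblast markers, of which Myod1, Des, Cdh15 and Pax7 were listed. The listed markers together made up between 1577 and 8123 CPM of each library, but their sum does not show their different courses. From GFP growth to GFP differentiation medium Des went from 1501 to 6503 CPM and Cdh15 from 598 to 806 CPM. Myod1 went from 1184 to 810 CPM and Pax7 from 78.7 to 4.01 CPM. Des thus made up most of the 8123 CPM in GFP differentiation medium. The summed level of 5 myotube markers was 5418 CPM in Twist2 differentiation medium and 20.3 CPM in Twist2 growth medium, against 42580 CPM in GFP differentiation medium and 151 CPM in GFP growth medium. In bulk RNA, fewer cells of a type and less RNA per cell cannot be told apart. With 1 library per group, differences are without a replicate check, and what belongs to a library cannot be told apart from what belongs to its condition. Intervals are 95% exact intervals and cover counting error only, not the spread between cultures. Reads counted without molecular identifiers may be copies of 1 molecule, in which case the intervals are too narrow even for counting error.

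Stretches before the transcription start were matched for 3 of the 7 genes and are shown because the manipulated factor is of the E-box binding class. The letters come from RefSeq (GRCm38.p6), start 250 bases before the annotated start and end where the first annotated exon begins, and run 5′ to 3′ on the strand of the gene. Capitals mark CANNTG, which reads the same on both strands as a pattern. The Adamts1 stretch lies at chr16:85803114-85803363 (minus strand), that of Timp3 at chr10:86300162-86300371 (plus strand) and that of Pcolce2 at chr9:95637378-95637600 (plus strand).
Adamts1: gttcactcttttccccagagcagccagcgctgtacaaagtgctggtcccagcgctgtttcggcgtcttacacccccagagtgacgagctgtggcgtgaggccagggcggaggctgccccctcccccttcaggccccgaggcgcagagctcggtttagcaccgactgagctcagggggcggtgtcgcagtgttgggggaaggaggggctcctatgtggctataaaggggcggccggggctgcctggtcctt
Timp3: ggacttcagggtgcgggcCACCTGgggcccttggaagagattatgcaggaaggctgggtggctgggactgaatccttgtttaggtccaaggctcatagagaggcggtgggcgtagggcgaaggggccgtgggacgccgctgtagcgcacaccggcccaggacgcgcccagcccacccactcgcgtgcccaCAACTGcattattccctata
Pcolce2: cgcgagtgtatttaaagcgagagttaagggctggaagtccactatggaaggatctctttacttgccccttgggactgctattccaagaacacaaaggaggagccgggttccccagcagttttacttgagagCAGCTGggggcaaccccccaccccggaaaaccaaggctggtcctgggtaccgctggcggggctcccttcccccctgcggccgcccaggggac
The Adamts1 stretch held 0 matches, Timp3 held 2 (CACCTG and CAACTG, starting 232 and 60 bases before the RefSeq start) and Pcolce2 held 1 (CAGCTG, 119 bases before it). Among 32851 promoters cut to the same lengths, 66.2% held at least 1 match at the length of Adamts1, 62.5% at that of Pcolce2 and 60.7% at that of Timp3, and 25.9% held 2 or more at that of Timp3. A match of these letters is not a site of binding.

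Adamts1 and Adamts5 were far higher after differentiation with either virus, and less so with Twist2. Both encode secreted proteases that cut large hyaluronan-binding proteoglycans such as versican and aggrecan. They lie beside each other on the minus strand of chromosome 16 (GRCm38), Adamts1 at 85793827 to 85803113 and Adamts5 at 85856173 to 85901828, 53.1 kb apart. Adamts1 had 124 CPM (117.6 to 130) in Twist2 differentiation medium and 11.3 CPM (9.40 to 13.5) in Twist2 growth medium, against 293 CPM (282 to 304) in GFP differentiation medium and 2.05 CPM (1.25 to 3.17) in GFP growth medium. Adamts5 had 169.5 CPM (162 to 177) in Twist2 differentiation medium and 36.1 CPM (32.7 to 39.9) in Twist2 growth medium, against 492 CPM (478 to 507) in GFP differentiation medium and 25.9 CPM (22.8 to 29.3) in GFP growth medium. Both genes were thus lowest in GFP growth medium and highest in GFP differentiation medium, and the Twist2 libraries lay between those extremes.

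In Twist2 cells Adamts1 was 10.95-fold higher after differentiation (interval 9.12 to 13.2) and Adamts5 was 4.69-fold higher (4.21 to 5.23). In GFP cells the same ratios were 143-fold for Adamts1 (92.2 to 234) and 19.0-fold for Adamts5 (16.8 to 21.7). Adamts1 differed between the viruses at both times and in opposite directions. After differentiation it stood with Twist2 at 0.422 times the GFP level (0.396 to 0.450), and in growth medium it was 5.502-fold higher with Twist2 (3.42 to 9.32). Adamts5 stood at 0.345 times the GFP level after differentiation (0.327 to 0.363), and in growth medium it was 1.40-fold higher with Twist2 (1.19 to 1.64), which is under the 2-fold threshold used for counting.

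Mmp19 and Plat, the other proteases, were highest in differentiated Twist2 cells and lowest in differentiated GFP cells. Mmp19 (chromosome 10, 128790910 to 128800824, plus strand) encodes a secreted matrix metalloproteinase known to cut basement membrane proteins. It had 113 CPM (107 to 119) in Twist2 differentiation medium and 32.3 CPM (29.1 to 35.9) in Twist2 growth medium, against 7.25 CPM (5.62 to 9.21) in GFP differentiation medium and 19.0 CPM (16.3 to 21.9) in GFP growth medium. After differentiation it was 3.50-fold higher in Twist2 cells (3.11 to 3.94) and stood at 0.382 times its growth medium level in GFP cells (0.285 to 0.508). On the log2(CPM + 1) scale the GFP response was -1.28, and it was short of 2-fold with a pseudocount of 5 CPM (-0.97), with size factors from the median of ratios (-0.95), and when each library was scaled to its reads in genes that are not listed (-0.55), called unlisted-gene scaling. Exons of Tmem198b and Gm47093 on the opposite strand overlap those of Mmp19. The strand setting of the counting is not given in the sources used here, so reads of these genes may be mixed.

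Plat (chromosome 8, 22757727 to 22782844, plus strand) encodes tissue plasminogen activator, the enzyme that turns plasminogen into plasmin. It had 156 CPM (149 to 163) in Twist2 differentiation medium and 52.2 CPM (48.1 to 56.7) in Twist2 growth medium. The GFP libraries had 0.650 CPM (6 reads, interval 0.238 to 1.41) in differentiation medium and 11.3 CPM (9.28 to 13.6) in growth medium. Plat thus rested on very few reads in differentiated GFP cells and was well measured in the other libraries. It was 241-fold higher with Twist2 than with GFP after differentiation (110.4 to 657) and 4.63-fold higher in growth medium (3.77 to 5.73). Differentiated Twist2 cells had 2.99 times the Plat level of growing Twist2 cells (2.73 to 3.29), and differentiated GFP cells 0.0576 times that of growing GFP cells (0.0207 to 0.129).

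Timp3, the inhibitor, went in opposite directions on differentiation with the 2 viruses. Timp3 is a matrix-bound inhibitor that blocks matrix metalloproteinases, ADAM proteases and ADAMTS proteases including ADAMTS5. The gene (chromosome 10, 86300372 to 86349506, plus strand) sits within Syn3, which runs on the other strand, shares exon positions with it and is not listed. Because the strand setting of the counting is not given, reads of Timp3 and Syn3 may be mixed, as for Mmp19. Timp3 had 99.3 CPM (93.9 to 105) in Twist2 differentiation medium and 15.3 CPM (13.1 to 17.8) in Twist2 growth medium, against 3.57 CPM (2.46 to 5.02) in GFP differentiation medium and 35.9 CPM (32.3 to 39.9) in GFP growth medium. It was the single gene of the 7 whose level in growth medium was at least 2-fold lower with Twist2, at 0.425 times the GFP level (0.352 to 0.512). With size factors that log2 ratio was -0.95 in place of -1.18, short of 2-fold. After differentiation the order was the other way round, with Timp3 27.8-fold higher with Twist2 than with GFP (19.7 to 40.6).

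Mrc2 had the highest level per kb of transcript among the 7 genes in both Twist2 libraries. It encodes Endo180, an endocytic receptor that takes collagen and its fragments into the cell for breakdown (chromosome 11, 105292643 to 105351139, plus strand). Mrc2 had 737 CPM (722 to 752) in Twist2 differentiation medium and 303 CPM (293 to 313) in Twist2 growth medium, against 4.76 CPM (3.46 to 6.40) in GFP differentiation medium and 36.3 CPM (32.6 to 40.3) in GFP growth medium. The 2 Twist2 libraries were thus far above both GFP libraries. With Twist2 it was 155-fold higher after differentiation (115 to 213) and 8.34-fold higher in growth medium (7.47 to 9.33). It took 52.6% of the CPM of the 7 genes in Twist2 differentiation medium and 57.6% in Twist2 growth medium, against 0.594% in GFP differentiation medium and 21.7% in GFP growth medium.

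Pcolce2 was higher in growth medium than after differentiation with either virus, which held for none of the other 6 genes. Its product binds procollagen and speeds the removal of the C-terminal propeptide by BMP1-type proteases (chromosome 9, 95637601 to 95698096, plus strand). Pcolce2 had 2.43 CPM (30 reads, interval 1.64 to 3.46) in Twist2 differentiation medium and 75.5 CPM (70.5 to 80.8) in Twist2 growth medium. The GFP libraries had 0.217 CPM (2 reads, interval 0.0262 to 0.782) in differentiation medium and 36.9 CPM (33.2 to 41.0) in growth medium. Differentiated Twist2 cells had 0.0321 times the level of growing Twist2 cells (0.0215 to 0.0462), and differentiated GFP cells 0.00586 times that of growing GFP cells (0.000707 to 0.0213). In growth medium Pcolce2 was 2.04-fold higher with Twist2 (1.80 to 2.32). Its log2 ratio there, 1.01, was at the edge of the threshold and was 0.94 with a pseudocount of 5 CPM and 0.95 with unlisted-gene scaling. The ratio after differentiation, 11.2-fold higher with Twist2 (2.84 to 96.8), rests on those 2 GFP reads and stayed below the minimum level used for counting.

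**Figure D1:**
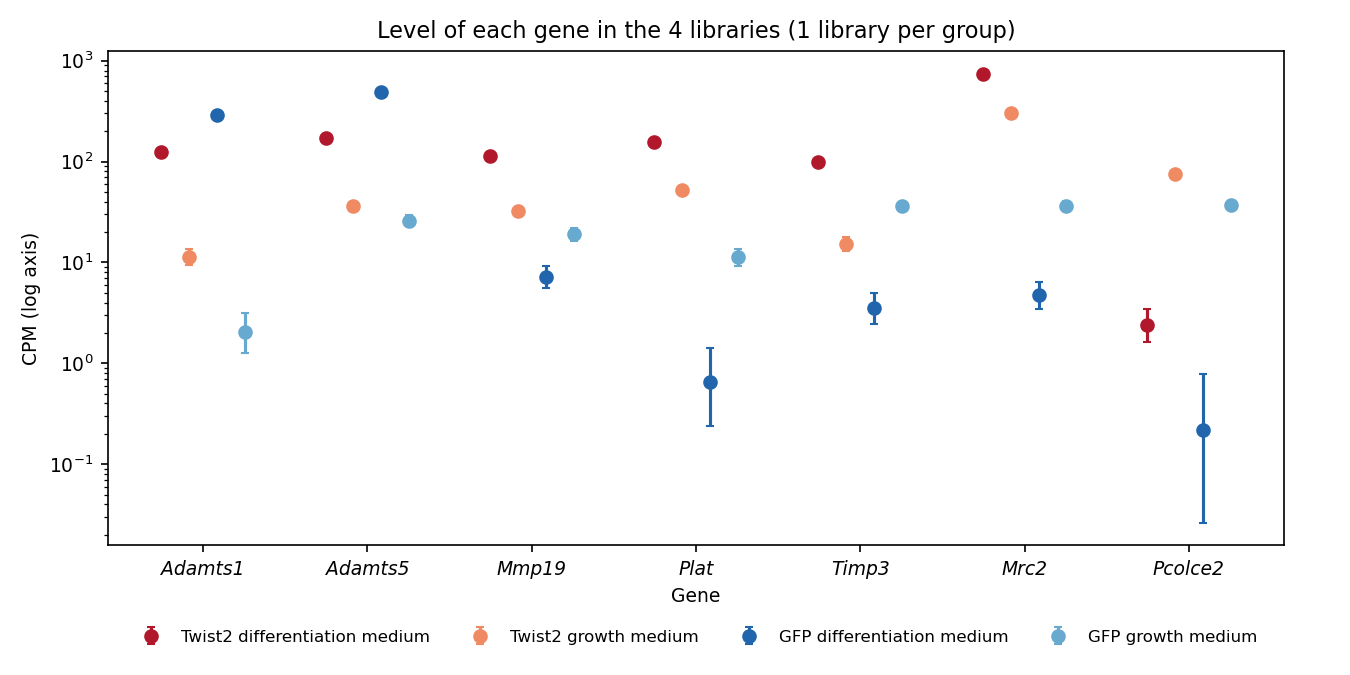
Level of each of the 7 genes in CPM (log axis) in Twist2 differentiation medium, Twist2 growth medium, GFP differentiation medium and GFP growth medium; each point is 1 library and bars are 95% exact counting intervals. Mrc2 reaches 737 CPM in Twist2 differentiation medium against 4.76 CPM in GFP differentiation medium, whereas Adamts1 and Adamts5 are highest in GFP differentiation medium, at 293 and 492 CPM.

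For each of the 7 genes the counting intervals of the 4 libraries did not overlap in any of the 6 pairs of libraries. The share of all listed genes with this property was not computed, so it is not read as particular to the 7. Transcript length changes the order between genes, so levels of different genes were compared per kb of the longest coding transcript. In Twist2 differentiation medium Mrc2 led with 127 CPM per kb, followed by Plat with 61.9, Mmp19 with 33.2, Adamts1 with 25.3, Timp3 with 21.04 and Adamts5 with 15.7 CPM per kb. In GFP differentiation medium Adamts1 led with 60.0 CPM per kb and Adamts5 had 45.6, and the next, Mmp19, had 2.13 CPM per kb. Adamts1 and Adamts5 together made up 20.9% of the CPM of the 7 genes in Twist2 differentiation medium and 9.02% in Twist2 growth medium, against 97.9% in GFP differentiation medium and 16.7% in GFP growth medium.

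**Figure D2:**
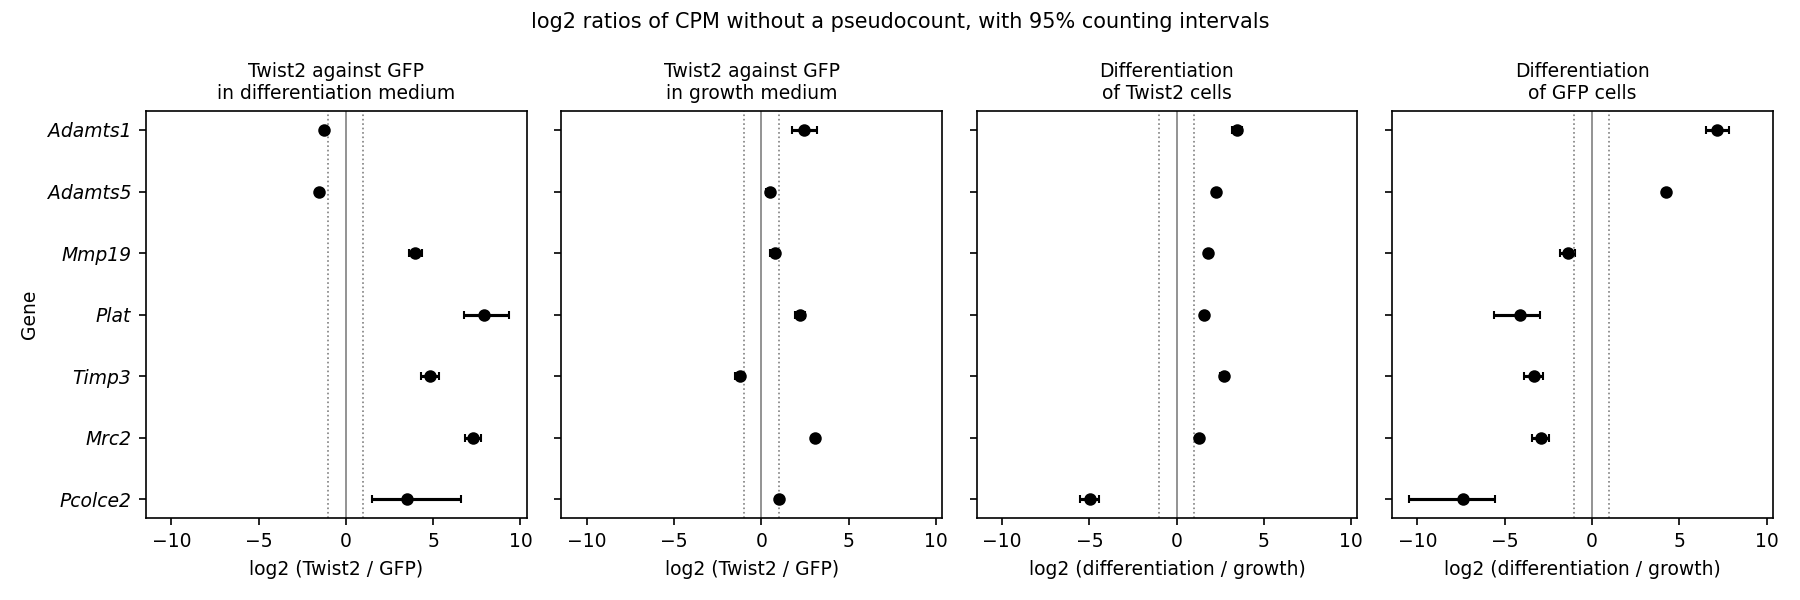
Log2 ratios of CPM without a pseudocount for the 7 genes in the 4 comparisons, Twist2 over GFP in the left pair of panels and differentiation over growth medium in the right pair; points are ratios of 2 single libraries, bars are 95% counting intervals and dotted lines mark 2-fold. Plat and Mrc2 lie at 7.91 and 7.27 for Twist2 over GFP in differentiation medium, and Pcolce2 is far to the left in both differentiation panels.

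The counts of genes past 2-fold were read on the log2(CPM + 1) scale, among genes whose higher library reached 10 CPM. In differentiation medium Mmp19, Plat, Timp3 and Mrc2 were at least 2-fold higher with Twist2, 4 of the 6 genes that reached the minimum, where 25.4% of 3437 listed genes were, and Adamts1 and Adamts5 were lower, where 25.2% were. In growth medium Adamts1, Plat, Mrc2 and Pcolce2 were higher with Twist2, 4 of 7, where 5.21% of 3514 listed genes were, and Timp3 was lower, where 10.6% were. Under unlisted-gene scaling the higher count in growth medium was 2, because Adamts1 was then under 10 CPM and Pcolce2 under 2-fold. On differentiation of Twist2 cells 6 of 7 were higher and Pcolce2 was lower, beside 26.5% and 24.5% of 3715 listed genes. On differentiation of GFP cells 2 of 7 were higher and 5 lower, beside 32.6% and 40.9% of 3694 listed genes, and the lower count was 3 with size factors or unlisted-gene scaling. Because the 7 names were chosen on these libraries, nothing is read from the gap between their counts and those shares.

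Median log2 ratios of the 7 genes, Pcolce2 left out where it was under the minimum, were 4.12 in differentiation medium, where that of all listed genes tested was -0.19, and 1.01 in growth medium, where it was -0.09. They were 1.77 on differentiation of Twist2 cells, beside -0.22, and -2.70 on differentiation of GFP cells, beside -0.38. Each library enters 2 of the 4 comparisons, so the comparisons are not independent of each other. The shares of listed genes depend on how libraries are scaled, since listed genes took 47.2% and 36.9% of the reads in Twist2 differentiation and growth medium, against 65.1% and 39.3% in GFP differentiation and growth medium. Of the listed genes past 2-fold in differentiation medium, 50.2% were higher with Twist2, or 24.3% under unlisted-gene scaling, and in growth medium 33.0% were, or 53.0% with size factors. On differentiation of Twist2 cells 51.9% of them were higher, or 66.8% under unlisted-gene scaling. On differentiation of GFP cells 44.4% were, or 57.8% with size factors and 69.8% under unlisted-gene scaling.

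The differentiation responses with the 2 viruses come from separate pairs of libraries and were set side by side. Mmp19, Plat, Timp3 and Mrc2 were at least 2-fold higher in Twist2 cells and at least 2-fold lower in GFP cells, a pattern held by 37 of 3649 listed genes (1.01%). Adamts1 and Adamts5 were higher in both, as were 20.9% of listed genes, and Pcolce2 was lower in both, as were 16.6%. The 4 genes of opposite direction were 2 (Timp3 and Mrc2) with size factors or unlisted-gene scaling. Under both, Mmp19 was short of 2-fold in GFP cells and Plat, at 11.3 CPM in GFP growth medium as deposited, was under 10 CPM. The signs of all ratios of the 7 genes in the 4 comparisons were the same under the 5 alternatives tried. Subtracting the log2 response of GFP cells from that of Twist2 cells gave 5.64 for Timp3 (2.62 and -3.01), 4.46 for Plat (1.56 and -2.90), 3.97 for Mrc2 (1.28 and -2.70) and 3.05 for Mmp19 (1.77 and -1.28). It was -3.25 for Adamts1 (3.34 and 6.59), -2.00 for Adamts5 (2.20 and 4.20) and 0.48 for Pcolce2 (-4.48 and -4.96). The sign of the Pcolce2 difference turned with the pseudocount, at 1.97 with 0.1 CPM and -0.43 with 5 CPM, so no direction is given for it. No test of these differences is possible with 1 library per group.

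**Figure D3:**
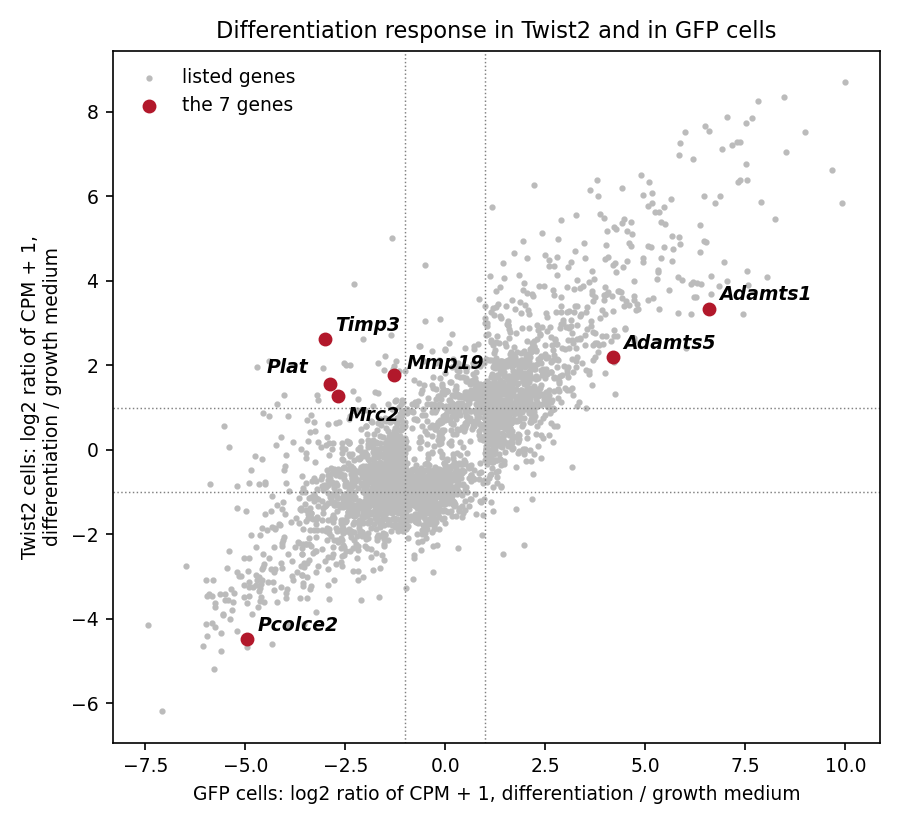
Log2 ratio of CPM + 1, differentiation over growth medium, in Twist2 cells (vertical axis) and in GFP cells (horizontal axis) for listed genes that reached 10 CPM in a library of both responses; grey points are listed genes, red points the 7 genes and dotted lines 2-fold. Timp3, Plat, Mrc2 and Mmp19 lie in the upper left, at 2.62, 1.56, 1.28 and 1.77 in Twist2 cells and -3.01, -2.90, -2.70 and -1.28 in GFP cells.

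The transcripts of a protease and of its inhibitor can be set against each other within a library, where scaling has no effect. Per kb of transcript, Timp3 reads stood at 1.34 times those of Adamts5 in Twist2 differentiation medium (1.25 to 1.44) and 0.966 times in Twist2 growth medium (0.802 to 1.16). The same ratio was 0.0166 in GFP differentiation medium (0.0114 to 0.0233) and 3.17 in GFP growth medium (2.69 to 3.75). Differentiated GFP cells were thus the library with far more Adamts5 than Timp3 transcript. Timp3 over Adamts1 was lowest in the same library, with 0.831 in Twist2 differentiation medium and 1.40 in Twist2 growth medium, against 0.0126 in GFP differentiation medium and 18.1 in GFP growth medium. Timp3 over Mmp19 moved less, with 0.633 in Twist2 differentiation medium and 0.340 in Twist2 growth medium, against 0.355 in GFP differentiation medium and 1.36 in GFP growth medium.

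Pcolce2 was below its relative Pcolce, the other procollagen C-proteinase enhancer, in every library, with 0.0421 times the Pcolce reads per kb in Twist2 growth medium and 0.0689 times in GFP growth medium. Mrc2 reads per kb stood at 0.0808 and 0.0956 times those of Col3a1, a fibrillar collagen chain, in Twist2 differentiation and growth medium, against 0.00818 and 0.0432 times in GFP differentiation and growth medium.

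**Figure D4:**
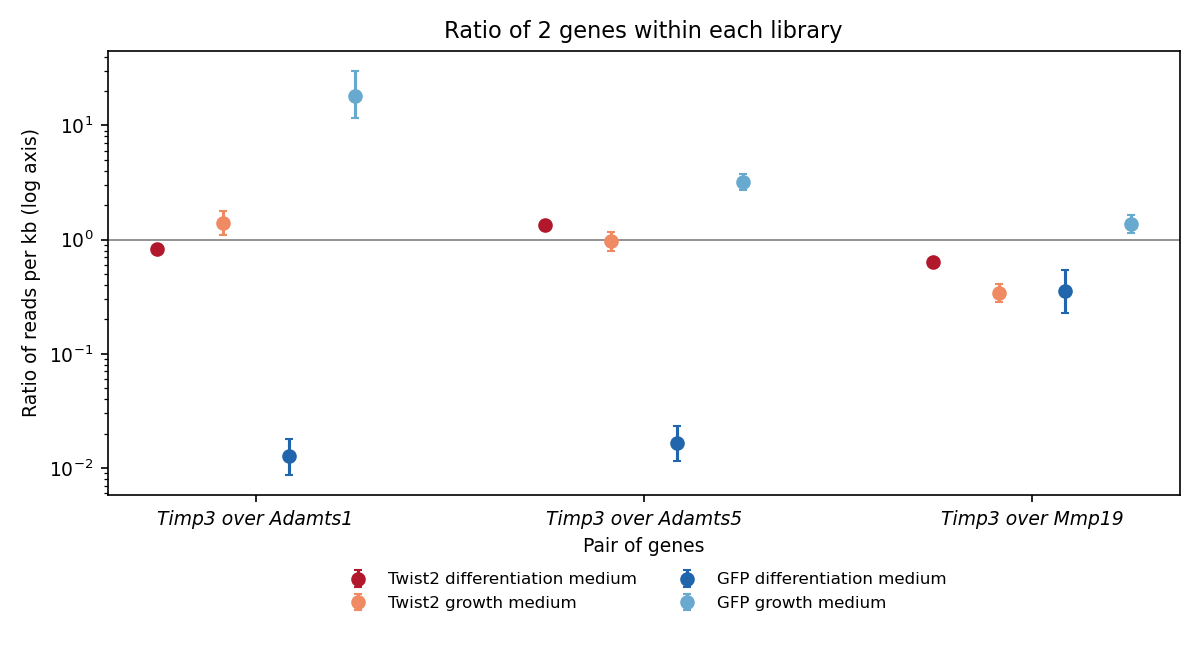
Ratio of reads per kb of 2 genes within each library (log axis) for Timp3 over Adamts1, Adamts5 and Mmp19; points are single libraries, bars are 95% exact counting intervals and the line marks equal levels. Timp3 over Adamts5 is 0.0166 in GFP differentiation medium and between 0.966 and 3.17 in the other 3 libraries.

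The wider matrix remodelling genes were taken from 12 lists with 149 genes, of which 53 besides the 7 were in the table. In differentiation medium 34 of 49 that reached the minimum were at least 2-fold higher with Twist2 and 2 lower, beside 25.4% and 25.2% of all listed genes. Under unlisted-gene scaling 23 of 50 were higher and 6 lower, where 497 of all listed genes were higher and 1548 lower. In growth medium 12 of 49 were higher and 2 lower, beside 5.21% and 10.6%. On differentiation of Twist2 cells 22 of 53 were higher and 10 lower, beside 26.5% and 24.5%. On differentiation of GFP cells 12 of 51 were higher and 27 lower, beside 32.6% and 40.9%. Under unlisted-gene scaling 16 of 48 were higher and 13 lower, where 1490 of all listed genes were higher and 646 lower. List counts under that scaling, here and below, are not to be set beside the percentages, which belong to the deposited scaling. Counts of single lists, given below, include those of the 7 genes that belong to the list. The lists were chosen with earlier results of these data known, so nothing is read from the gap between their counts and the shares beside them. Median log2 ratios of the genes besides the 7 were 1.39 in differentiation medium, 0.41 in growth medium, 0.85 on differentiation of Twist2 cells and -1.11 on that of GFP cells. Col5a3, a fibrillar collagen chain, and Bgn, the small proteoglycan biglycan, were the 2 of 51 that were at least 2-fold higher in Twist2 and lower in GFP differentiation, though under unlisted-gene scaling Bgn was less than 2-fold lower in GFP cells.

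Among the 19 ADAMTS proteases 5 were listed. Adamts4, another aggrecan-cutting enzyme, had 60.7 CPM in Twist2 differentiation medium and 14.5 CPM in Twist2 growth medium, against 25.0 CPM in GFP differentiation medium and 20.0 CPM in GFP growth medium. It was higher with Twist2 after differentiation (log2 ratio 1.25), where Adamts1 and Adamts5 were lower. Adamts10 was also higher with Twist2 there, with 14.1 CPM in Twist2 and 1.30 CPM in GFP differentiation medium. Under unlisted-gene scaling 1 of the 5 listed ADAMTS proteases was at least 2-fold higher with Twist2 there, in place of 2. Adamts6 was lower after differentiation of Twist2 cells (-2.14) and of GFP cells (-1.44).

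Of 20 matrix metalloproteinases 5 were listed. In differentiation medium 4 of them were at least 2-fold higher with Twist2, beside 25.4% of all listed genes. Mmp2, gelatinase A, had 109 CPM in Twist2 and 1.52 CPM in GFP differentiation medium (log2 ratio 5.45), which is a larger ratio than the 3.79 of Mmp19. Mmp14, the membrane-bound enzyme that activates the MMP2 proenzyme, had 153 CPM in Twist2 and 23.2 CPM in GFP differentiation medium (2.67), and Mmp11 had 147 and 37.4 CPM (1.94). Mmp15, another membrane-bound member, was the exception, with 41.6 CPM in Twist2 and 72.5 CPM in GFP differentiation medium, and in growth medium it was lower with Twist2 (-2.25). Unlike Mmp19, the genes Mmp2, Mmp11 and Mmp14 were within 2-fold on differentiation of Twist2 cells, with log2 ratios of 0.83, 0.28 and 0.72. Mmp15 was higher there (1.59). Under unlisted-gene scaling 3 of the 5 listed metalloproteinases were higher there, in place of 2, so this contrast depends on the scaling. Of 5 inhibitors, Timp3 and Reck were listed, and Reck, a membrane-anchored inhibitor, had 15.0 CPM in Twist2 and 1.84 CPM in GFP differentiation medium (2.49). The other TIMP genes were not analysed here.

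Of 14 plasminogen activation genes 8 were listed. In differentiation medium 6 of the 8 were higher with Twist2, beside 25.4% of all listed genes, and 5 of 8 under unlisted-gene scaling. On differentiation of GFP cells 7 of the 8 were lower, beside 40.9%, and 5 of 7 under that scaling. Plau, which encodes the urokinase-type activator, had 99.98 CPM in Twist2 differentiation medium and 101 CPM in Twist2 growth medium, against 22.2 CPM in GFP differentiation medium and 100.5 CPM in GFP growth medium. Plau had log2 ratios of Twist2 over GFP of 2.12 in differentiation medium and 0.0089 in growth medium, whereas Plat was higher with Twist2 in both media. S100a10, which encodes a plasminogen receptor subunit, was lower after differentiation with either virus (-2.61 in Twist2 and -3.42 in GFP cells). On differentiation of Twist2 cells 4 of these 8 genes were lower, beside 24.5% of all listed genes. Plat was the single one that was higher, beside 26.5%, against 2 higher under unlisted-gene scaling.

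Of 21 procollagen processing and cross-linking genes 10 were listed. After differentiation 6 of 8 that reached the minimum were higher with Twist2, beside 25.4% of all listed genes, and 3 were higher under unlisted-gene scaling. Among the 6 was Bmp1 (2.75), which encodes the protease that PCOLCE proteins assist. Pcolce had 1074 CPM in Twist2 and 177 CPM in GFP differentiation medium (2.59), and unlike Pcolce2 it was within 2-fold of its growth medium level with either virus. Loxl3, a collagen cross-linking enzyme, had the largest ratio of this list in growth medium (2.75). Of 10 genes of collagen uptake and lysosomal breakdown 5 were listed. After differentiation 3 of the 5 were higher with Twist2, beside 25.4% of all listed genes. These were Mrc2, Ctsl (2.02), which encodes cathepsin L, and Cst3 (1.06), which encodes the cathepsin inhibitor cystatin C. With size factors and under unlisted-gene scaling 2 of the 5 genes were higher. All 5 were higher after differentiation of Twist2 cells, beside 26.5% of all listed genes.

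The known targets of these enzymes varied as well. Vcan, the hyaluronan-binding proteoglycan versican that ADAMTS1 and ADAMTS5 cut, had 171 CPM in Twist2 differentiation medium and 139 CPM in Twist2 growth medium, against 1.95 CPM in GFP differentiation medium and 49.6 CPM in GFP growth medium. Vcan was thus lowest in the library where Adamts1 and Adamts5 were highest. It was highest in Twist2 differentiation medium, where Adamts1 and Adamts5, at 124 and 169.5 CPM, were above their levels in either growth medium library. A link between these transcripts was not tested. Of 11 fibrillar collagens 8 were listed. After differentiation 6 of 7 were higher with Twist2, beside 25.4% of all listed genes, and 3 were higher under unlisted-gene scaling. The largest ratios were those of Col5a3 (6.21) and Col3a1 (3.96). Col11a1, another chain, had 55.2 CPM in Twist2 and 18.2 CPM in GFP differentiation medium (1.55). Cd44, the hyaluronan receptor, had 212 CPM in Twist2 and 99.5 CPM in GFP differentiation medium (1.08). Of the 4 listed genes of hyaluronan and its proteoglycans 2 were higher with Twist2 there, beside 25.4% of all listed genes, and 1 under unlisted-gene scaling. Of 11 other secreted proteases 5 were listed. After differentiation Htra3 (2.77), Cpe (2.17) and Htra1 (1.89) were higher with Twist2, as were 25.4% of all listed genes.

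**Figure D5:**
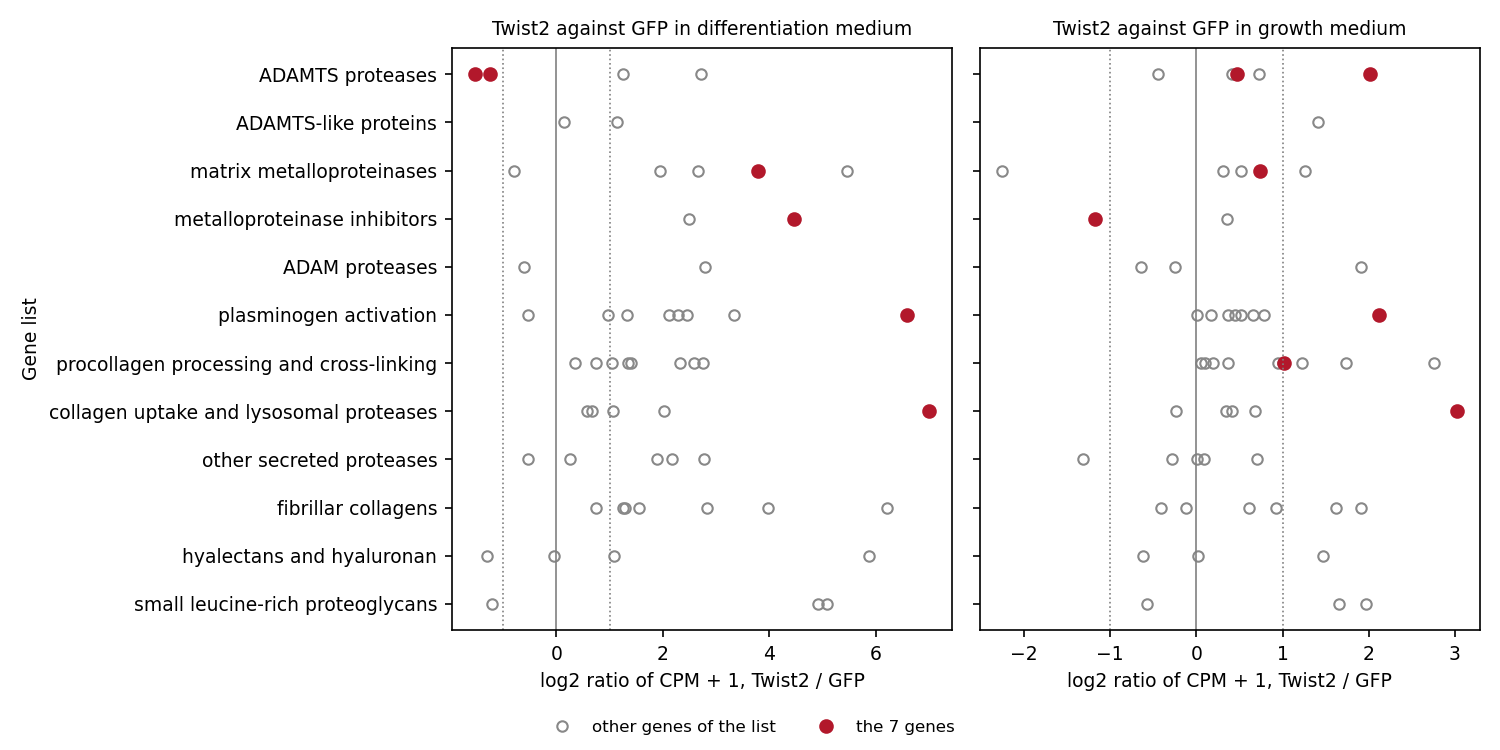
Log2 ratio of CPM + 1, Twist2 over GFP, of the genes in 12 matrix remodelling lists that reached 10 CPM in either library, in differentiation medium (left) and growth medium (right); red points are the 7 genes, open points the other genes of a list, and dotted lines mark 2-fold. In differentiation medium Mrc2 (6.9995) and Plat (6.58) lie farthest to the right, and Adamts5 (-1.53) and Adamts1 (-1.24) lie left of the lower 2-fold line.

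For each of the 7 genes the 3 listed genes with the most similar course over the 4 libraries were found, by the Euclidean distance between log2(CPM + 1) profiles after subtracting each gene's mean. Plat and Mrc2 were each other's neighbours (distance 0.71), and Col5a3 was among the 3 nearest of both (0.61 from Plat and 1.23 from Mrc2). The nearest of Mmp19 was Rhoj (0.19), followed by Ddit4 (0.34). Those of Timp3 were Spp1 (0.60), Hey1 (0.68) and Col4a1 (0.69). Adamts5 had Slc2a6 (0.30), Slc6a9 (0.40) and Acsl6 (0.41), and Adamts1 had no close neighbour, with Kank1 at 1.34. Adamts1 and Adamts5 were 2.09 apart. Pcolce2 had Kif11 (0.29), Aspm (0.37) and Casc5 (0.39), genes of the mitotic spindle, spindle pole and kinetochore. A distance over 4 libraries is a description, since many genes share so short a profile.

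Markers of other cells and states varied between the libraries as well. Of 6 fibroblast markers Ly6a and Dcn were listed, and their summed level was 67.9 CPM in Twist2 differentiation medium and 43.5 CPM in Twist2 growth medium, against 1.19 CPM in GFP differentiation medium and 12.9 CPM in GFP growth medium, with Ly6a at 0 reads in GFP differentiation medium. The 2 markers took different courses. Dcn had 64.6 and 10.6 CPM in Twist2 differentiation and growth medium, against 1.19 and 1.95 CPM in GFP differentiation and growth medium. Ly6a had 3.32 and 32.9 CPM in Twist2 differentiation and growth medium, against 0 and 10.98 CPM in GFP differentiation and growth medium. On differentiation of Twist2 cells Dcn was thus higher (log2 ratio 2.50) and Ly6a was lower (-2.97). Of the 7 genes 6 were higher there, all but Pcolce2, beside 26.5% of all listed genes. Of 6 pericyte and smooth muscle markers Rgs5 and Abcc9 were listed, and they too had opposite courses. Rgs5 had 4.69 and 85.1 CPM in Twist2 differentiation and growth medium, against 0.108 and 51.7 CPM in GFP differentiation and growth medium. Abcc9 had 19.98 and 0.0904 CPM in Twist2 differentiation and growth medium, against 51.0 and 0.308 CPM in GFP differentiation and growth medium. Their sums, between 24.7 and 85.2 CPM over the 4 libraries, do not show this. The proliferation marker Mki67 stood at 22.0 and 411 CPM in Twist2 differentiation and growth medium, against 0.433 and 248 CPM in GFP differentiation and growth medium, in the order of Pcolce2. Myog, a factor of muscle differentiation, had 378 and 3.52 CPM in Twist2 differentiation and growth medium, against 1075 and 76.4 CPM in GFP differentiation and growth medium. In differentiation medium Twist2 cells were lower than GFP cells in Myog, in the summed myotube markers, in Adamts1 and in Adamts5. The part of any of these markers in the levels of the 7 genes was not tested. The endothelial, leukocyte, adipocyte and Schwann cell markers looked up were not among the listed genes, so nothing is said about those cells here.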

How the data were processed

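Total RNA was taken from cultured myoblasts with Trizol, and libraries followed Illumina's protocols, according to the labels. TopHat2 2.0.0, DESeq2 1.6.3 and GRCm38 (mm10) appear in the submitters' processing notes with no role stated, and no source used here gives the counter, annotation or strand setting. The authors deposited CPM values of 3760 genes in 4 libraries, and log2 ratios against GFP growth medium that matched log2 of CPM + 1 ratios within 1.3e-11. The values show a selection: all genes reach 10 CPM in 2 or more libraries and an authors' log2 ratio of 1.00 or more in size. Other genes were not analysed here, and the selection raises the share of listed genes past 2-fold. All values (100%) were whole multiples of 1 read within 0.001 reads, which gave reads and totals.

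From these were computed log2 ratios of CPM + 1 (which understate ratios of low genes), ratios without a pseudocount with exact conditional binomial (Clopper-Pearson) 95% intervals, and exact Poisson intervals of single levels. Counts used 2-fold and a minimum of 10 CPM in the higher library (Python 3.11.15, numpy 2.4.6, pandas 2.3.3, scipy 1.17.1). The calculation was tested on simulated counts. With 1 library per group, no count model was fitted and no p-value is given. Positions and lengths are from GENCODE M21 (GRCm38), the length being that of the longest coding transcript. The list counts and response differences were recomputed under the alternatives after the data were seen. The 7 genes and the 12 lists were chosen with earlier results of these data known. Named genes are the 7, all listed ADAMTS, MMP and TIMP genes, up to 3 genes per list with the largest ratios, the 3 nearest profiles of each gene, and Twist2, Myog and Mki67. Plau and Pcolce were added for comparison with Plat and Pcolce2, Plau after its values were seen. A result that fell under this rule is not reported here.

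Alternatives were pseudocounts of 0.1 and 5 CPM, no minimum, median-of-ratios size factors, and scaling each library to its reads in genes that are not listed. The size factors come from the listed genes alone, a set selected for a log2 ratio of 1.00 or more in size.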

Additional observations from a re-analysis of the deposited data

Results flagged for a closer look

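Differentiation went in opposite directions with the 2 viruses for 4 of the 7 genes, which is why they are given here. Subtracting the log2 response of GFP cells from that of Twist2 cells gave 5.64 for Timp3, 4.46 for Plat, 3.97 for Mrc2 and 3.05 for Mmp19. Each was higher after differentiation of Twist2 cells and lower after that of GFP cells. The difference was not tested, since each group has 1 library. Of the 2 fibroblast markers in the table, Dcn had 64.6 and 10.6 CPM in Twist2 differentiation and growth medium, against 1.19 and 1.95 CPM in GFP differentiation and growth medium. Ly6a took another course, with 3.32 and 32.9 CPM in Twist2 differentiation and growth medium, against 0 and 10.98 CPM in GFP differentiation and growth medium. Their part in these differences was not tested.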

How the results depend on the processing

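All 140 ratios of the 7 genes recomputed under the 5 alternatives kept their sign, and 7 crossed the 2-fold line: Mmp19 in GFP differentiation (3 alternatives), Pcolce2 in growth medium (2) and in differentiation medium (1), and Timp3 in growth medium (1). With size factors the genes lower in GFP differentiation were 3, those lower with Twist2 in growth medium 0 and those of opposite direction 2. Under unlisted-gene scaling the genes lower in GFP differentiation were 3, those of opposite direction 2, those past 2-fold in growth medium 3 and those higher there 2. In these counts some genes leave because rescaling puts them under 10 CPM (Plat in GFP differentiation under both, Adamts1 in growth medium under the second). Over all listed genes, size factors gave 968 lower in GFP differentiation and 241 lower with Twist2 in growth medium, in place of 1511 and 372. Unlisted-gene scaling gave 604 lower in Twist2 and 646 lower in GFP differentiation, in place of 911 and 1511, and 497 higher and 1548 lower with Twist2 in differentiation medium, in place of 873 and 867, and the cause was not tested. Size factors shifted the median of all listed genes by 0.23 (growth medium) and 0.34 (GFP differentiation) on the log2 scale, and unlisted-gene scaling by -0.57 (differentiation medium), 0.25 (Twist2 differentiation) and 0.78 (GFP differentiation). The list counts and response differences were recomputed under the same alternatives, a choice made after seeing the data. Of the genes in the 12 lists, unlisted-gene scaling gave 6 lower with Twist2 in differentiation medium and 13 lower in GFP differentiation, in place of 2 and 27. The response difference of Pcolce2, 0.48, lay between -0.43 and 1.97, and those of the other 6 genes kept their sign. Changing the pseudocount or dropping the minimum kept counts of the 7 genes, all listed genes and the 12 lists together within 1.5 times. Some counts of single lists moved more with a pseudocount of 5 CPM. Procollagen processing and cross-linking genes higher with Twist2 in growth medium were then 2 in place of 5. ADAMTS-like genes higher with Twist2 in differentiation medium, and those lower in GFP differentiation, were each 0 in place of 1. Depth limits Plat and Pcolce2 in GFP differentiation medium, at 6 and 2 reads. No paired analysis was possible because each group has 1 library, and for the same reason no replicate could be left out.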

Other observations

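Adamtsl2, which encodes an ADAMTS-like glycoprotein without protease activity, had 228 CPM in Twist2 differentiation medium and 0.632 CPM in Twist2 growth medium, against 207 CPM in GFP differentiation medium and 0.718 CPM in GFP growth medium. It was thus far higher after differentiation and within 2-fold between the viruses. Adam12, an ADAM protease known from fusing myoblasts, had 21.03 and 11.2 CPM in Twist2 differentiation and growth medium, against 2.17 and 2.26 CPM in GFP differentiation and growth medium. Ogn, the small proteoglycan osteoglycin, had 133 and 29.3 CPM in Twist2 differentiation and growth medium, against 309 and 44.0 CPM in GFP differentiation and growth medium, so it was lower with Twist2 in both media, where Adamts5 was lower in differentiation medium and 1.40-fold higher in growth medium. Bgn and Dcn of the same family were higher with Twist2 in differentiation medium, with log2 ratios of 5.08 and 4.90. Adam19, another ADAM protease, had 110.5 and 31.8 CPM in Twist2 differentiation and growth medium, against 168 and 38.1 CPM in GFP differentiation and growth medium, and was thus higher after differentiation with either virus.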
